A study of Homo sapiens with 6 samples.

Results

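The polyamine metabolism genes are a set of 10 genes chosen by name, ODC1, AMD1, SRM, SMS, SAT1, SMOX, PAOX, OAZ1, OAZ2 and AZIN1, among 55765 gene symbols in the count files. All 10 had a row in the files and all 10 passed the filter on low counts. RNA-seq counts of the prostate cancer cell line C4-2, an established castration-resistant subline of LNCaP, were used from 3 libraries of cells given the solvent DMSO and 3 libraries of cells given SAL (supraphysiological androgen level), which is 1 nM of the synthetic androgen R1881 for 72 h. Each condition was run independently in triplicate, as the study states, and for the culture of the cells the study refers to earlier work. Libraries with the same replicate number were treated as pairs. C4-2 is a single line, so the values describe that line and not prostate cancer cells in general, and in bulk RNA a change in the share of cells that express a gene cannot be told apart from a change in RNA per cell.

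Polyamines are small, positively charged molecules that bind nucleic acids and are needed for growth, and the prostate makes and secretes them in unusually large amounts. ODC1, the rate-limiting enzyme, makes putrescine from ornithine. AMD1 makes the aminopropyl donor from S-adenosylmethionine, SRM uses it to turn putrescine into spermidine, and SMS uses it to turn spermidine into spermine. SAT1 acetylates spermidine and spermine for export or for oxidation by PAOX, and SMOX oxidizes spermine directly. The antizymes OAZ1 and OAZ2 bind ODC1 and send it to the proteasome, and AZIN1, an inactive relative of ODC1, binds antizymes and so protects ODC1.

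Of the 10 genes, SAL raised 3, the first and the last enzyme of synthesis and the acetylating enzyme of catabolism. SAT1 was 9.61-fold higher, SMS 7.73-fold higher and ODC1 3.02-fold higher in SAL. The other 7 genes, AMD1, SRM, SMOX, PAOX and the 3 antizyme regulators, did not pass the threshold, and their fitted log2 changes (log2 fold changes of SAL over DMSO) lay between -0.24 and 0.34. The threshold was a Benjamini-Hochberg adjusted p under 0.05 in edgeR's quasi-likelihood test of 16835 genes with the replicate number as a block. By this rule 11.5% of all genes were called higher and 9.37% lower in SAL, against 3 and 0 of the 10 polyamine genes. At an unadjusted p under 0.05 in edgeR, 4 of the 10 were higher and 1 was lower, beside 17% and 15.4% of all genes. DESeq2 with the block also called 3 higher (7.66% of all genes) and 0 lower (5.64%).

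The libraries held between 6931042 and 9776990 counts after rRNA genes were removed. The rRNA share that was removed followed the replicate number more than the treatment, at 27.7%, 18.6% and 11.9% of gene counts under DMSO and 27.8%, 22% and 17.4% under SAL (replicates 1, 2 and 3). Over all genes tested, the deviations from the group means correlated at between 0.74 and 0.89 between libraries with the same number. The androgen-induced genes KLK3, FKBP5 and TMPRSS2 rose by 1.21, 3.36 and 2.07 on the log2 scale (edgeR adjusted p = 3.33e-07, 1.84e-11 and 9.14e-09), with overlapping groups for TMPRSS2. Without the block FKBP5 was still called (adjusted p = 0.0470), while KLK3 (adjusted p = 1) and TMPRSS2 (adjusted p = 0.781) were not. Each of 8 luminal prostate genes had at least 143 counts in every library. The basal genes TP63, KRT5 and KRT14 had between 0 and 3 counts and the leukocyte gene PTPRC had 0. Low counts were present for CHGA (4 to 17) and SYP (9 to 24), which mark neuroendocrine cells, and for COL1A1 (14 to 88), which marks fibroblasts. The luminal genes summed to between 2668 and 4894 CPM in DMSO and between 4699 and 9157 CPM in SAL. The part of the higher luminal sum in the results was not tested. The summed level of the 3 basal markers was between 0.134 and 0.372 CPM in DMSO and between 0.128 and 0.329 CPM in SAL.

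The promoters of the 3 genes that rose are shown because these genes moved together, and that of SRM is shown as a gene of the same pathway that was not called. Each sequence is the 250 bases upstream of the RefSeq transcription start on the strand of the gene, with positions in GRCh38.p14, and capitals mark 3 short motifs searched on both strands, the E-box CACGTG, the GC box GGGCGG and the letters TATAA. For ODC1 the sequence is chr2:10448328-10448577 on the minus strand, for SMS chrX:21940459-21940708 and for SAT1 chrX:23782923-23783172, both on the plus strand, and for SRM chr1:11060019-11060268 on the minus strand.
ODC1: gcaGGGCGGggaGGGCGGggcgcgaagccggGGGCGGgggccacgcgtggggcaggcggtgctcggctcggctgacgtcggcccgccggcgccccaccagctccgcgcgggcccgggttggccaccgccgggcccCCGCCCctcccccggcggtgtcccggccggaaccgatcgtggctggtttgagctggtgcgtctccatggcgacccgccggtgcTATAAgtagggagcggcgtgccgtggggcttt
SMS: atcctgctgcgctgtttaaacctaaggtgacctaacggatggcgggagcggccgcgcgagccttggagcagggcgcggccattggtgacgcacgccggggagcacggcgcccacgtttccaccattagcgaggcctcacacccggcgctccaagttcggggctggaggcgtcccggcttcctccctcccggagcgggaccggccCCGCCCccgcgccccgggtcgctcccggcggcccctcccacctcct
SAT1: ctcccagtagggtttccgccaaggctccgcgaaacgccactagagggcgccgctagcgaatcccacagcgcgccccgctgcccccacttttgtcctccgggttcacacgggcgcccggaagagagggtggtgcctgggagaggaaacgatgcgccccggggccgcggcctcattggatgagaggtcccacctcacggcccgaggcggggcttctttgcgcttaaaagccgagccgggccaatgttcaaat
SRM: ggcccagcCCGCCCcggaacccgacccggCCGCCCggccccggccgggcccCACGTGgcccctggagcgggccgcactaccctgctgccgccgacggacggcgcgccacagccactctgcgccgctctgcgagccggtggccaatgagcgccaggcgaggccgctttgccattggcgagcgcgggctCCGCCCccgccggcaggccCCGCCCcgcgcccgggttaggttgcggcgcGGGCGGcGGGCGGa

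The 4 promoters were unlike one another in these letters. The ODC1 window held 4 GC boxes and a TATAA at position -32 relative to the start, the SMS window held 1 GC box, the SAT1 window held none of the 3 motifs, and the SRM window held 6 GC boxes and 1 E-box at position -199. Their GC content was 78.8% for ODC1, 72.8% for SMS, 66.4% for SAT1 and 82.0% for SRM. Of 35116 RefSeq promoter windows of the same length, 42.6% held a GC box, 18.9% TATAA and 6.34% an E-box. A second annotated ODC1 start, with its window at chr2:10448013-10448262, had 1 E-box, at position -29. The androgen receptor hexamer AGAACA was in none of the windows of the 7 polyamine genes in the promoter table, which lacks entries for SMOX, PAOX and AZIN1, and in 12.4% of all windows.

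The palindromic androgen response element, AGAACA and TGTTCT with 3 bases between them, was also searched in GRCh37 (the assembly of hg19, which the counts rest on) within 10000 bases on each side of the annotated start, with 1 mismatch allowed in its 12 fixed bases. Such a match was found near 8.11% of 20163 protein-coding genes and near 2 of the 10 polyamine genes, AMD1 and SMOX, which were not called. The matches are printed with the pair of hexamers in capitals. The AMD1 match lies 2174 bases downstream of the start, inside the gene, at chr6:111198140-111198154, and the SMOX match lies at -4679 bases, upstream of the start, at chr20:4096941-4096955.
AMD1: AGAAGAtttTGTTCT
SMOX: GGAACAtgaTGTTCT
No match of this kind was found in the windows of ODC1, SMS or SAT1, nor in those of KLK3, FKBP5 and TMPRSS2. The search finds only near-exact palindromes, and the study lists ChIP primers for a KLK3 element named PSA ARE I. A blank here therefore does not show that a gene lacks an androgen response element.

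ODC1 lies on the minus strand of chromosome 2 (chr2:10580094-10588453 in GRCh37). It was counted 2705, 3418 and 2210 times in the DMSO libraries (replicates 1, 2 and 3, an order kept throughout) and 6389, 14518 and 7955 times in SAL. As CPM (counts scaled to library size with TMM factors), this was 335, 467 and 295 in DMSO and 818, 1592 and 980 in SAL. Every SAL library was above every DMSO library, and replicate 2 was the highest of both groups. The means were 366 ± 90.1 CPM in DMSO and 1130 ± 408 CPM in SAL (SD, n = 3). The fitted log2 change, given here with its standard error (SE), was 1.60 (SE 0.11, edgeR with the block, adjusted p = 6.61e-08), with 1.29, 1.77 and 1.73 in the 3 pairs. Without the block, ODC1 kept a log2 change of 1.63 but had an adjusted p of 0.416. ODC1 ranked 103rd by p among the genes tested.

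AMD1 (chr6:111195973-111220082 in GRCh37, plus strand) supplies the step that both synthases draw on. Its counts were 10429, 4326 and 6218 under DMSO and 11439, 6423 and 8796 under SAL. This was 905 ± 356 CPM in DMSO and 1084 ± 380 CPM in SAL, and the groups overlapped, with replicate 1 highest and replicate 2 lowest in both. The log2 change was 0.27 (SE 0.09, edgeR adjusted p = 0.0516), just short of the threshold, and the level was higher in SAL in 3 of 3 pairs, by 0.18, 0.25 and 0.38. Without replicate 1 the edgeR adjusted p was 0.00858 and without the filter 0.0140, while without replicate 3 it was 0.595. These fits differed over all genes too. Without replicate 1, 2443 genes were called higher and 1955 lower of 16735, against 1931 and 1577 of 16835 in the main fit. The edgeR adjusted p of ODC1 was 3.63e-61 without replicate 1 and 5.05e-66 without the filter, against 6.61e-08 in the main fit. The annotation lists 4 processed AMD1 pseudogenes by name, and reads that matched several places were not counted, so part of the AMD1 reads may be missing from its counts.

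Of the pair of synthases that follow each other, SMS was called higher and SRM was not. SRM (chr1:11114641-11120077 in GRCh37) had 215, 462 and 305 counts in DMSO and 166, 670 and 360 in SAL. Its level was 43.5 ± 18.4 CPM in DMSO and 46.4 ± 26.2 CPM in SAL, with overlapping groups, a fall of 0.32 on the log2 scale in the first pair and rises of 0.22 and 0.12 in the others. Its log2 change was 0.03 (SE 0.12, edgeR adjusted p = 0.896). The sign turned without replicate 2 or without replicate 3, without a call in any setting tried. SRM also has processed pseudogenes (SRMP1, SRMP2 and SRMP3), so the limit given for AMD1 may hold here too. SRMP2 had between 7 and 21 counts.

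SMS (chrX:21958827-22012955 in GRCh37, plus strand) had 1071, 756 and 647 counts in DMSO and 7179, 8031 and 5514 in SAL. In CPM, the DMSO libraries were at 133, 103 and 86.5 and the SAL libraries at 919, 881 and 679, so that the lowest SAL library was above the highest DMSO library. The log2 change was 2.95 (SE 0.10, edgeR with the block adjusted p = 3.38e-11), with 2.79, 3.09 and 2.97 in the pairs. This was the second largest change among the 10 genes and ranked 61st by log2 change and 9th by p among all genes tested. Within each library, the log2 ratio of SMS to SRM (counts per kb of the canonical transcript) was 1.88, 0.28 and 0.65 in DMSO and 5.0, 3.15 and 3.50 in SAL. The ratio was higher in SAL by 2.95 ± 0.15 (SD over 3 pairs), and differed less between pairs than the ratio did between DMSO libraries. A two-sided exact sign-flip permutation test over the 3 pairs gave p = 0.25, the smallest p that 3 pairs allow. SMS has a processed pseudogene on the X chromosome.

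SAT1 (chrX:23801290-23804327 in GRCh37, plus strand) showed the largest change of the set. Its counts were 338, 181 and 248 in DMSO and 3018, 2224 and 2638 in SAL. The corresponding levels were 41.9, 24.7 and 33.1 CPM in DMSO and 386, 244 and 325 CPM in SAL, with no overlap. Replicate 1 was highest and replicate 2 lowest in both groups. The log2 change was 3.26 (SE 0.10, edgeR with the block adjusted p = 1.61e-11), and the pairs gave 3.20, 3.29 and 3.28. SAT1 ranked 4th by p among the 16835 genes, directly before FKBP5, and 46th by log2 change. Without the block SAT1 and SMS were still called, each with an adjusted p of 0.0470 (edgeR), in a fit that called only 0.107% of all genes higher. Another gene of the newer annotation overlaps 8.58% of the SAT1 exons.

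The oxidases were the lowest of the set and had no call. SMOX (chr20:4101627-4168394) had 17, 101 and 47 counts in DMSO and 22, 153 and 67 in SAL, and PAOX (chr10:135192765-135205198, both in GRCh37) had 16, 64 and 43 in DMSO and 25, 102 and 46 in SAL. For both genes replicate 2 was highest and replicate 1 lowest in either group. SMOX stood at a log2 change of 0.34 (SE 0.20, edgeR adjusted p = 0.257) and was higher in SAL in 3 of 3 pairs. PAOX stood at 0.29 on this scale (SE 0.23, edgeR adjusted p = 0.413) and was higher in 2 of 3. These SEs were larger than the 0.09 of AMD1, and what size of change could be called at this depth was not tested. Another annotated gene covers 75.0% of the PAOX exons on the same strand, so the PAOX counts may lack reads that could not be assigned.

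**Figure D1:**
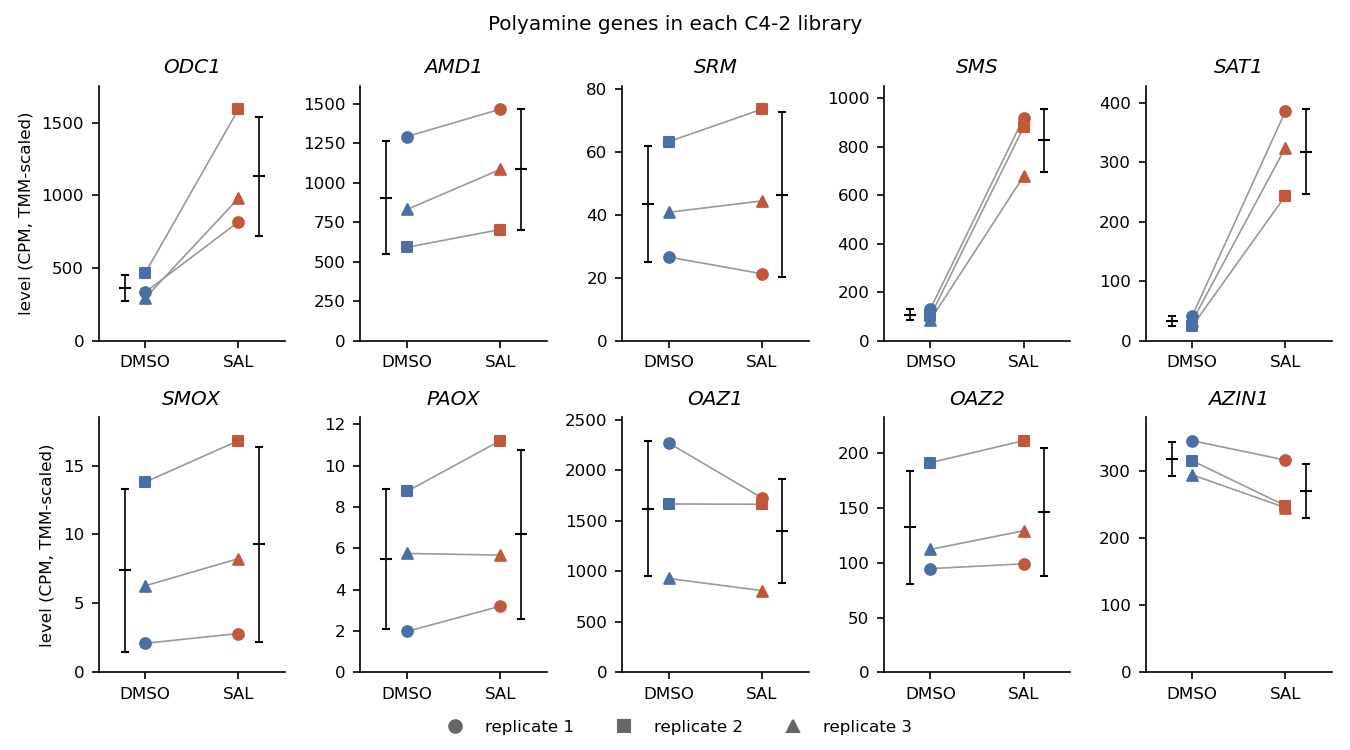
Level of each polyamine gene in CPM (TMM-scaled, linear axis from 0) in the 3 DMSO and 3 SAL libraries, with lines joining libraries of the same replicate number and bars beside the points giving the mean ± SD (n = 3). ODC1, SMS and SAT1 are higher in every SAL library than in every DMSO library, while the groups of the other 7 genes overlap.

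The antizymes and their inhibitor, which set how much ODC1 protein survives, had no call. OAZ1 (chr19:2269508-2273489 in GRCh37) had 18316, 12182 and 6949 counts in DMSO and 13474, 15165 and 6563 in SAL. Its level was 1621 ± 671 CPM in DMSO and 1399 ± 512 CPM in SAL, and its log2 change was -0.20 (SE 0.10, edgeR adjusted p = 0.191), with -0.40, 0.00 and -0.20 in the pairs. Its exons overlap those of JSRP1 on the other strand over 225 bases (19.6%), and the counting did not use strand. Another annotated gene overlaps 220 bases (19.2%) on the same strand. OAZ1 also has a processed pseudogene, on chromosome 1. Its groups overlapped, and replicate 3 was lowest in both. OAZ2 (chr15:64979772-64995480) was at 94.5, 191 and 112 CPM in DMSO and 98.9, 211 and 129 CPM in SAL, a mean of 132 ± 51.5 against 146 ± 57.9 (SD, n = 3), with a log2 change of 0.14 (SE 0.09, edgeR adjusted p = 0.336).

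AZIN1, on chromosome 8 from 103838339 to 103906092 in GRCh37, had the most even levels in DMSO, with 346, 316 and 295 CPM, against 317, 249 and 246 CPM in SAL. The groups overlapped only through SAL replicate 1, which was above DMSO replicates 2 and 3. AZIN1 was lower in SAL in 3 of 3 pairs, by 0.13, 0.34 and 0.26 on the log2 scale, but its log2 change of -0.24 (SE 0.09) had an adjusted p of 0.0727 in edgeR. It passed the threshold in 1 of the alternative settings, without replicate 1 (edgeR adjusted p = 0.0138), and was at 0.158 with DESeq2 and the block. Without replicate 1, 1955 of 16735 genes were called lower, against 1577 of 16835 in the main fit.

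**Figure D2:**
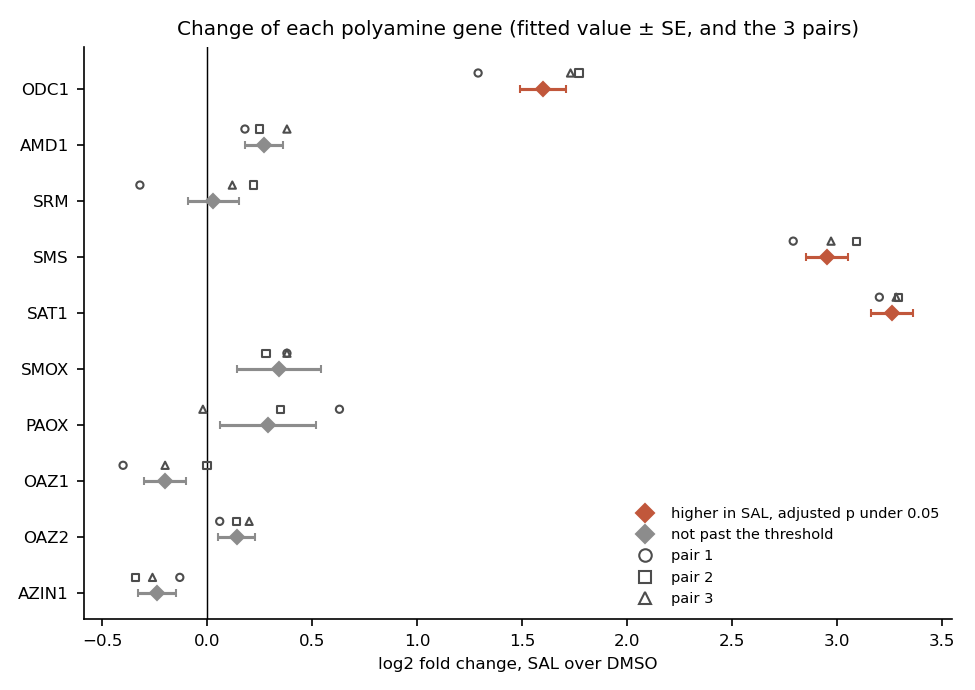
Log2 change (SAL over DMSO) for the 10 polyamine genes. Diamonds are the fitted values of edgeR with bars of 1 SE, and open symbols the differences within the 3 pairs. SAT1, SMS and ODC1 stand at 3.26, 2.95 and 1.60, and the other 7 genes between -0.24 and 0.34.

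The spread of each gene over the 6 libraries was divided between treatment and replicate number, as a description of the same values that gave the calls. For ODC1, SMS and SAT1, the treatment accounted for 84.0%, 97.7% and 96.9% of the squared deviations in log2 CPM among the 6 libraries. For AMD1, SRM, SMOX, PAOX, OAZ1 and OAZ2 the replicate number accounted for between 90.8% and 97.3%, while AZIN1 lay between, with 49.5% for the replicate number and 44.4% for the treatment. SMOX differed 5.97-fold between DMSO replicates 1 and 2, and PAOX 4.03-fold, in log2 CPM with a prior count of 2. The prior shrinks folds at low counts, and the CPM without it were 2.11 and 13.8 for SMOX and 1.98 and 8.75 for PAOX. SRM, SMOX, PAOX and OAZ2 were lowest in replicate 1 and highest in replicate 2 in both groups, and AMD1 was highest in replicate 1 and lowest in replicate 2. The rRNA share was highest in replicate 1 of both groups, and its part in these differences was not tested. Beside 3 of 10 polyamine genes with every SAL library above every DMSO library, 3.78% of all genes tested had this order, and beside 0 of 10 with the reverse order, 3.73%.

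Set against gene length, the order of the levels changed between the groups. In DMSO, OAZ1 led with 1412 ± 585 CPM per kb of the canonical transcript (SD, n = 3), followed by AMD1 with 264 ± 104 and ODC1 with 148 ± 36.4. AZIN1, OAZ2 and SMS came next with 76.1 ± 6.12, 68.5 ± 26.6 and 63.1 ± 13.7 CPM per kb, before SRM with 34.5 ± 14.6 and SAT1 with 31.7 ± 8.16. SMOX and PAOX were last with 3.42 ± 2.74 and 3.0 ± 1.85 CPM per kb. Neighbours whose libraries overlapped in DMSO were AMD1 and ODC1, AZIN1, OAZ2 and SMS, SRM and SAT1, and SMOX and PAOX.

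In SAL, SMS moved from the 6th to the 2nd place with 485 ± 75.6 CPM per kb and SAT1 from the 8th to the 5th with 304 ± 68.2. OAZ1 was still first with 1219 ± 446 CPM per kb and above every other member in every library, an order that did not hold in every SAL library with the length of all annotated exons. ODC1 stood at 456 ± 165 and AMD1 at 317 ± 111, and the libraries of SMS and ODC1, of ODC1 and AMD1 and of AMD1 and SAT1 overlapped. All 4 were above OAZ2, AZIN1 and SRM in every SAL library. With the length of all annotated exons in place of the canonical transcript, SMS and SAT1 rose from the 5th to the 2nd and from the 8th to the 4th place.

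**Figure D3:**
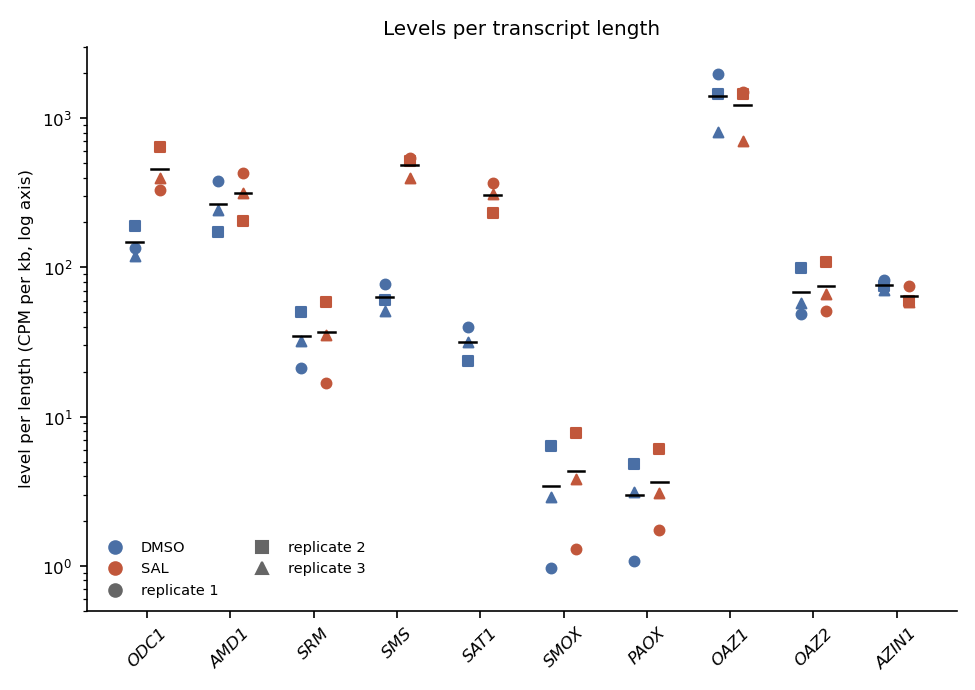
Level per transcript length (CPM per kb of the canonical transcript, log axis) of the 10 polyamine genes in each DMSO and SAL library, with black lines at the group means. SMS goes from 63.1 to 485 and SAT1 from 31.7 to 304, while OAZ1 is first in both groups.

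Ratios within a library do not depend on how libraries are scaled. They compare mRNA only, and protein, enzyme activity and polyamine levels were not measured in these libraries. The log2 ratio of ODC1 to the sum of OAZ1 and OAZ2, all as counts per kb, was -3.90, -3.04 and -2.86 in DMSO and -2.23, -1.28 and -0.96 in SAL. Every SAL ratio was above every DMSO ratio, and the pairs differed by 1.67, 1.76 and 1.90, a mean of 1.78 ± 0.12 (SD, n = 3 pairs) or 3.43-fold. On this scale antizyme mRNA exceeded ODC1 mRNA in every library, but in SAL replicate 3 ODC1 was the higher without division by length (7955 counts against 6563 for OAZ1 and 1044 for OAZ2) and with the length of all annotated exons. The log2 ratio of the summed synthesis genes (ODC1, AMD1, SRM and SMS) to the summed catabolic genes (SAT1, SMOX and PAOX) went the other way, from 3.87, 3.76 and 3.56 in DMSO to 1.82, 2.53 and 1.86 in SAL. Its differences in the pairs were -2.04, -1.23 and -1.71, with a mean of -1.66 ± 0.41 (SD, n = 3 pairs). The summed synthesis transcripts were above the catabolic ones in every library. The lower ratio is not a fall of synthesis transcripts, as 0 of the 4 synthesis genes had a fitted fall and 2 were called higher. SAT1 made up most of the catabolic sum, with 31.7 CPM per kb in DMSO and 304 in SAL. SMOX stood at 3.42 and 4.29 and PAOX at 3.0 and 3.65. For each of these ratios the two-sided exact sign-flip permutation test gave p = 0.25 and the unpaired exact permutation test p = 0.1, both the smallest p the design allows.

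A further 2 ratios, and that of SMS to SRM above, were chosen after the values had been seen. SAT1 relative to ODC1 was higher in SAL by 1.67 ± 0.21 on the log2 scale (SD, n = 3 pairs), with -1.76, -3.0 and -1.92 in DMSO and 0.16, -1.47 and -0.35 in SAL. ODC1 relative to AZIN1, its protective relative, was higher in SAL by 1.84 ± 0.37. Both had p = 0.25 in the exact sign-flip permutation test, again the smallest p that 3 pairs allow.

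Around the 10 genes, 38 other genes of the pathway were listed by role, of which 31 passed the filter, 5 were called higher and 5 lower in SAL. Their median log2 change was -0.02, beside -0.001 for all genes tested and 0.283 for the 10 polyamine genes. The share called in each direction, 5 of 31, stood beside 11.5% and 9.37% of all genes. Without the block 0 of the 31 were called (2 at an unadjusted p under 0.05, edgeR), and without replicate 3 the calls fell to 2, ARG2 and SLC22A3. The called genes are named with edgeR values from the fit with the block, and the few uncalled genes named beside them were picked by role after their values had been seen.

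Of the close relatives of the polyamine enzymes, 3 of 4 were tested. SAT2, a homologue of SAT1, had 197, 141 and 72 counts in DMSO and 227, 345 and 173 in SAL. Its log2 change of 0.76 (SE 0.17, edgeR adjusted p = 0.00465) came with 0.25, 0.96 and 1.13 in the pairs and overlapping groups. The third antizyme OAZ3 (log2 change 0.48, adjusted p = 0.133) and AZIN2, a second antizyme inhibitor (0.05, adjusted p = 0.948, listed under its older symbol ADC), did not pass. AGMAT, which makes putrescine from agmatine, had between 3 and 7 counts and was not tested.

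Of 7 transport genes tested, 1 was called higher and 2 lower, beside 11.5% and 9.37% of all genes. SLC22A3, an organic cation transporter that carries polyamines among other substrates, rose from 54.0 ± 14.4 to 115 ± 32.9 CPM, with 307, 483 and 433 counts in DMSO and 617, 1123 and 1164 in SAL and no overlap. Its log2 change was 1.09 (SE 0.10, edgeR adjusted p = 2.32e-06). SLC18B1, the vesicular polyamine transporter, fell by 0.79 (adjusted p = 0.00982), with 88, 64 and 72 counts in DMSO and 50, 51 and 40 in SAL. SLC3A2, the heavy chain of several amino acid transporters, which has also been linked to polyamine export, fell by 0.46 (adjusted p = 0.00317), with overlapping groups. The endolysosomal polyamine exporter ATP13A2 and its relative ATP13A3 were not called, at 0.17 and -0.16 on the log2 scale (edgeR adjusted p = 0.486 and 0.294).

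Ornithine, the substrate of ODC1, comes from arginine through arginase. Here 2 of 7 genes tested were called higher and 2 lower, beside 11.5% and 9.37% of all genes. ARG2, the mitochondrial arginase, had 422, 203 and 208 counts in DMSO and 702, 710 and 565 in SAL. Its SAL libraries were all above its DMSO libraries, with a log2 change of 1.18 (SE 0.13, edgeR adjusted p = 1.64e-05) and 0.78, 1.48 and 1.32 in the pairs. ASL, which releases arginine from argininosuccinate, rose by 0.55 (adjusted p = 0.0211), and ASS1, the enzyme before it, fell by 0.57 (adjusted p = 0.0172). SLC7A1, a transporter that imports arginine and ornithine, fell by 0.42 (adjusted p = 0.00415). The groups overlapped for ASL, ASS1 and SLC7A1. ARG1, OTC and SLC25A2 had at most 12 counts in a library and were not tested.

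In the supply of S-adenosylmethionine and the salvage of its by-product, 1 gene of 10 was called higher and 1 lower. Of all genes, 11.5% were called higher and 9.37% lower. MAT2A, which makes S-adenosylmethionine, fell from 217 ± 33.1 to 165 ± 28.1 CPM, a log2 change of -0.40 (SE 0.09, edgeR adjusted p = 0.00511), in 3 of 3 pairs but with overlapping groups. ADI1, an enzyme of methionine salvage, rose by 0.33 (adjusted p = 0.0165), also with overlapping groups. MTAP, which splits the methylthioadenosine that SRM and SMS release, was at a log2 change of -0.07 (adjusted p = 0.679). Of the 4 hypusine genes, by which a part of spermidine is attached to the translation factor EIF5A, edgeR called 0, 0 had an unadjusted p under 0.05 and DESeq2 with the block called 0. Their log2 changes were 0.09 for DHPS, -0.04 for DOHH, -0.15 for EIF5A and -0.19 for EIF5A2.

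**Figure D4:**
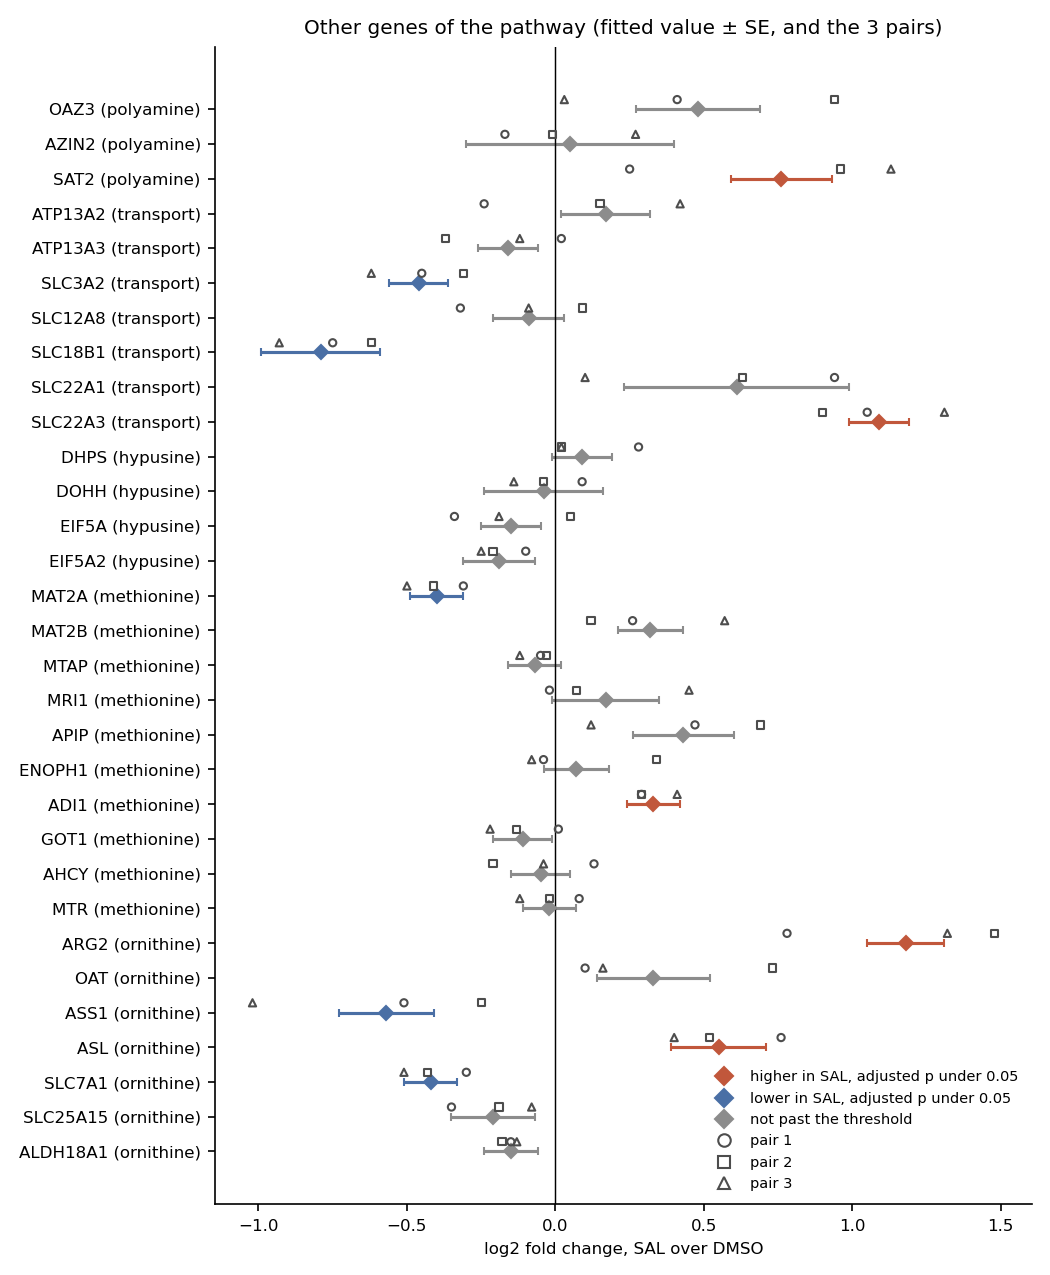
Log2 change (SAL over DMSO) for the 31 other pathway genes tested, ordered by role. Diamonds are fitted values of edgeR with bars of 1 SE, coloured where the adjusted p is under 0.05, and open symbols the 3 pairs. ARG2 and SLC22A3 have the largest rises among the calls, with 1.18 and 1.09, and SLC18B1 the largest fall with -0.79.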

How the data were processed

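RNA was measured in 6 C4-2 libraries made with a stranded total RNA kit. The authors trimmed the reads, aligned read 1 to hg19 with TopHat2 2.1.0 and Bowtie, and assigned it to gencode genes with HTSeq 0.11.2, ignoring strand. The deposited values are raw counts per gene symbol, 1 file per library. Groups and replicate numbers come from the sample titles.

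Here 523 rRNA symbols were removed (as in the study), low genes were filtered with filterByExpr, and 16835 genes were tested with edgeR 4.0.16 in R 4.3.3, using TMM, a block for the replicate number, after the paired test of the study, robust quasi-likelihood dispersions and Benjamini-Hochberg adjustment at 0.05. Same-numbered libraries deviated together in all 3 pairs (correlations 0.89, 0.86 and 0.74). Each SE was computed as |log2 fold change| divided by the root of the F statistic. Pair differences use log2 CPM with a prior count of 2. Gene positions and lengths come from GRCh37 with GENCODE v44 lifted to it, newer than the authors' annotation. AZIN2 was matched through a RefSeq synonym. Promoters are RefSeq sequences in GRCh38.p14 (7 of 10 genes matched). The fit was tested on simulated data. Counts limit precision by depth, and only 3 libraries per group were available. Alternatives were DESeq2 1.42.0 with the block, DESeq2 size factors, no block, other filters, rRNA genes kept, each replicate left out and, for ratios, other lengths. The 10 genes and the pathway lists were chosen with earlier results of these data known. All 10 are named, with at most 3 calls per direction of each wider list and 3 androgen-induced genes. The members were tested within the fit of all genes, not apart.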

Additional observations from a re-analysis of the deposited data

How the results depend on the processing

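The calls of SAT1 and SMS held in all 9 alternatives, with log2 fold changes from 3.23 to 3.30 and from 2.86 to 3.03. ODC1 was called in 8 of 9, from 1.49 to 1.75, and was not called without the replicate block (adjusted p = 0.416, edgeR). No fall was called among the 10 genes except without replicate 1, where AZIN1 passed, so leaving out a replicate gave 0 to 1. AMD1 passed without the filter and without replicate 1. In these fits the edgeR adjusted p of ODC1 was 5.05e-66 and 3.63e-61, against 6.61e-08 in the main fit. The median log2 fold change of the 10 genes, 0.28, was 0.30 without the filter and 0.25 to 0.27 with a replicate left out. The 10 calls among the wider pathway genes became 0 without the replicate block, where 2 had an unadjusted p under 0.05, 7 with DESeq2 and the block, and 2 to 11 with a replicate left out. The 2 were reached without replicate 3, which left ARG2 and SLC22A3 and whose calls over all genes were 750 higher and 483 lower. SAT2 and ASL also lost their calls without replicate 2, and SLC18B1, ADI1 and ASL with DESeq2. The ratio of ODC1 to antizymes stayed between 1.72 and 1.83 and that of synthesis to catabolism between -1.87 and -1.20, the last with the length of all annotated exons, an alternative chosen after the data were seen. Whether other genes near the threshold would pass with more libraries was not tested, and 16 to 153 counts per library limit SMOX and PAOX.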
